A study of Mus musculus with 16 samples.

Results

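The genes described here are 10 genes of iron storage and transport, Fth1, Ftl1, Tfrc, Trf, Slc40a1, Slc11a1, Slc11a2, Cp, Aco1 and Ireb2, taken by symbol from the 21878 mRNAs whose counts were deposited. All 10 were present in the tables, and all 10 had enough counts to be tested. The RNA came from brain cells sorted as microglia (CD11b+/CD45int) from wild-type (WT) female C57BL/6 mice aged 8 weeks at the start. In 8 mice, experimental autoimmune encephalomyelitis (EAE), a model of multiple sclerosis, was induced with the myelin peptide MOG (35-55) in complete Freund's adjuvant and with 200 ng pertussis toxin on days 0, 2 and 7. The 8 control mice received phosphate-buffered saline (PBS) on the same schedule, so that peptide, adjuvant and toxin together separate the groups and their effects cannot be told apart. Brains were taken on day 14, at a clinical score of 3–4 in the EAE mice. Each mouse gave 1 stranded total RNA library after removal of ribosomal RNA. In the treatment field of the labels the last MOG residue runs from 55 in the first EAE mouse to 62 in the eighth, whereas the methods give the same peptide for all of them. Libraries are named by group and number, EAE 1 to EAE 8 and PBS 1 to PBS 8.

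Cells take up iron bound to transferrin through the transferrin receptor, release it from endosomes through a divalent metal transporter, store the surplus in ferritin and export it through ferroportin together with a ferroxidase. When iron is scarce, iron regulatory proteins bind a short hairpin, the iron-responsive element, in the mRNAs of several of these genes. This binding blocks the translation of ferritin and ferroportin mRNAs and stabilises the transferrin receptor mRNA, so that much of the control acts on translation and is not read by mRNA levels. In the brain, microglia and macrophages handle iron from debris and red cells, oligodendrocytes are rich in iron and transferrin, and astrocytes carry ceruloplasmin.

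Total counts were 24587443–30244215 per EAE library and 26031889–34184576 per PBS library. Levels are given as FPKM, the count of a gene scaled to the total count of its library and to the length of the gene model. The libraries held RNA of other brain cells beside that of microglia. The summed FPKM of 10 microglia markers was 166–271 in EAE and 153–255 in PBS libraries, none of which was called or had an unadjusted p under 0.05, while that of 9 oligodendrocyte markers was 919–1291 and 1008–1237, that of 7 astrocyte markers 1105–1677 and 1277–1516, and that of 8 neuron markers 728–928 and 907–991. Among these, the astrocyte marker Gfap was called higher in EAE mice (log2FC 0.50, with the other astrocyte markers below 0 and not called), and the neuron markers Gad1 (−0.53) and Syt1 (−0.28) were called lower. Transcripts of the iron genes can therefore come from any of these cells, and in bulk RNA fewer cells of a type and less RNA per cell cannot be told apart. Other marker lists were lower, at 80.1–136 and 103–243 for the choroid plexus, where Ttr was called lower in EAE mice, 47.0–74.3 and 52.3–67.8 for endothelium, 29.5–44.7 and 31.9–46.8 for pericytes, where Vtn was called lower (log2FC −0.47), and 0.969–2.58 and 0.917–1.76 for T cells. The hepatocyte list, at 67.9–120 and 86.8–227, was nearly all Ttr. No listed marker was at 0 in every library. EAE 6, 7 and 8 and PBS 5, 7 and 8 were more alike than other pairs of their group: their median squared difference over genes was 3.02–4.09 times counting noise, against 5.88–26.2 times for the other pairs of a group. Neither the labels nor the methods name a batch. Across the groups, pairs of these 6 libraries lay at 6.67 (EAE 7 and PBS 8) to 13.3 (EAE 6 and PBS 7) times counting noise. As ratios across the groups also hold the difference between EAE and PBS mice, they do not show whether the 6 form 1 set shared by both groups. Of all pairs across the groups, EAE 4 and PBS 4, both outside the 6, were the closest, at 5.66 times counting noise. Results are also given within the 6 alike libraries and within the other 10. As the 6 were singled out in these same counts by small differences within a group, errors and p-values within them understate the spread between mice.

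The iron-responsive elements are shown first, since they are the sequence feature that ties the storage, uptake and export genes together. The protein-coding transcripts of the members in the basic set of the annotation were searched on their sense strand. The pattern was the loop CAGTGN closed by 5 base pairs, G-U pairs included, with an unpaired C below the stem on its 5′ side. The match is printed with 5 further bases at its lower end on each side, and positions are on GRCm38. In capitals are the unpaired C and the 6 bases of the loop. A match was found in the untranslated regions of 4 of the 10 members.
Fth1, 5′ UTR, chr19:9982733-9982759, plus strand: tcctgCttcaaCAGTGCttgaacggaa
Ftl1, 5′ UTR, chr7:45459780-45459806, minus strand: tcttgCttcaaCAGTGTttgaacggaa
Slc40a1, 5′ UTR, chr1:45925466-45925492, minus strand: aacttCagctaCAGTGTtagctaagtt
Tfrc, 3′ UTR, chr16:32631220-32631246, plus strand: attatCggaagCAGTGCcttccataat
Tfrc, 3′ UTR, chr16:32631599-32631625, plus strand: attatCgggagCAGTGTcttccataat
Tfrc, 3′ UTR, chr16:32631664-32631690, plus strand: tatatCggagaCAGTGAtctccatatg
Tfrc, 3′ UTR, chr16:32631711-32631737, plus strand: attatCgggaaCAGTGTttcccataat

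Among 21851 protein-coding genes, 0.128% had such a match in a 5′ UTR, 0.581% in a 3′ UTR and 0.709% in either. Fth1, Ftl1 and Slc40a1, which store and export iron, had it before the coding sequence, and Tfrc, which takes iron up, had 4 matches behind it. The search found no match in the UTRs of Trf, Slc11a1, Slc11a2, Cp, Aco1 and Ireb2, which says only that no such letters with this pairing were found there.

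At the level of mRNA, the iron genes differed little between EAE and PBS-treated mice. Slc11a1, the metal transporter of phagosomes in macrophages and neutrophils, was the only member that passed the test, and it was higher in EAE mice (log2FC 0.52, SE 0.14). For 6 of the 10 members, the 95% interval of the log2 fold change (log2FC) lay within 0.25 of 0, and these included both ferritin chains, the transferrin receptor and transferrin. Tests were made with edgeR's quasi-likelihood test over 17885 genes, and a gene was called at a Benjamini-Hochberg adjusted p under 0.05. In this comparison, 17.4% of all tested genes had an unadjusted p under 0.05, against 1 of the 10 members, and 2.42% were called in either direction, 0.66% higher and 1.76% lower. The split was 118 higher and 315 lower in edgeR, but 132 higher and 73 lower in limma on log2(FPKM + 0.1). With 1 of 10 members called, nothing particular to the set can be read from this count. The median log2FC was −0.0018 over the members, with 5 above 0 and 5 below, and 0.0092 over all tested genes. No member was called lower, either in edgeR or in DESeq2, and none was lower at an unadjusted p under 0.05 in either test. DESeq2 called 5.09% of all genes, 3.42% as lower, and of the members again only Slc11a1. With the additional threshold of the study, a |log2FC| over 1, no member was called in edgeR here, against 0.117% of all tested genes. The paper reports more mRNAs at its thresholds than this fit called. FPKM ranges of the groups did not overlap for 0.263% of tested genes and for no member.

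**Figure D1:**
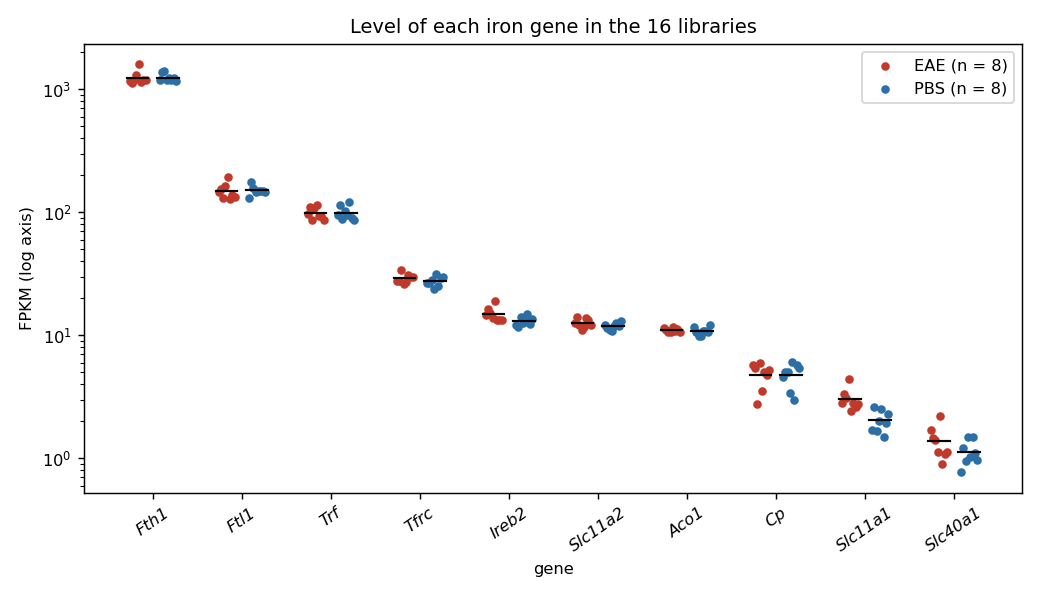
FPKM (log axis) of the 10 iron genes in each library, with EAE in red, PBS in blue and the group mean as a black line (n = 8 per group). The levels span from 1244 for Fth1 to 1.25 for Slc40a1 as means over 16 libraries, and the clearest offset between the groups is that of Slc11a1.

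Ferritin, the iron store, is a shell of heavy and light chains. Fth1 encodes the heavy chain, which oxidises the iron that enters the shell. Its FPKM was 1123 at the lowest, 1186 at the median and 1595 at the highest in EAE mice, and 1160, 1209 and 1413 in the PBS group. Fth1 ranked first of all mRNAs by FPKM in 16 of 16 libraries, although with a short gene model of 942 bases it took only 0.1058–0.1503% of the counts. The group means, 1242 ± 153 (SD, n = 8) in EAE and 1247 ± 96.1 in the PBS group, differed by far less than the spread (log2FC −0.06, 95% interval −0.20 to 0.08, adjusted p = 0.714 in the edgeR test). Within the 6 alike libraries the log2FC was also −0.06 (SE 0.03, adjusted p = 0.119 in edgeR), and in the other 10 it was −0.06 (SE 0.10). With 1 library left out it ranged from −0.12 without EAE 5 (adjusted p = 0.207 in edgeR) to −0.03 without PBS 3, and was not called. The highest value belonged to EAE 5, followed by PBS 3 (1413) and PBS 2 (1381). The summed FPKM of 7 erythroid markers was 914 in EAE 5 and 577 in PBS 2, the highest of their groups, and 342 in PBS 3. PBS 1, with an Fth1 level of only 1190, had a higher sum than PBS 3, 398. EAE 4, with an Fth1 level of 1316, had 386. The part of red cells in the Fth1 level was not tested.

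Ftl1 encodes the light chain, which promotes the formation of the iron core. Its FPKM was 127 at the lowest, 142 at the median and 195 at the highest in EAE mice, and 131, 149 and 176 in the PBS group. EAE 5 and PBS 2 were the highest of their groups, and the EAE range enclosed that of the PBS group. The log2FC was −0.07 (SE 0.08, adjusted p = 0.683 in the edgeR test), −0.14 without EAE 5 (adjusted p = 0.219 in edgeR) and −0.03 without PBS 2. Within the 6 alike libraries, however, the FPKM was 127–138 in EAE and 147–150 in PBS libraries. There Ftl1 was called lower in EAE mice (log2FC −0.19, SE 0.04, adjusted p = 0.00074 in edgeR), in a comparison that called 24.1% of all genes and 13.1% as lower. These libraries were singled out by their small spread within a group, so this SE and p-value are too small. In the other 10 libraries the log2FC was −0.01 (SE 0.11). The ratio of Fth1 to Ftl1 was 8.40 ± 0.645 in EAE mice and 8.29 ± 0.470 in the PBS group (SD, n = 8), and 5 of 8 EAE libraries lay above the PBS median.

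For both ferritin genes, copies elsewhere in the genome are annotated on GRCm38. A search by symbol found 5 that are named as ferritin pseudogenes, most of them of the processed type. Copies under other names were not searched for, and the counts of the copies were not analysed here. Whether reads were shared with them is not given in the sources used here, so that the ferritin counts carry this uncertainty. A microRNA gene and a transcript of unknown status also overlap Ftl1 on the annotation.

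Transferrin, encoded by Trf, carries iron outside cells and is made in the brain mainly by oligodendrocytes. Its FPKM was 87.1 at the lowest, 95.05 at the median and 114 at the highest in EAE mice, and 86.8, 95.4 and 121 in the PBS group. The groups covered the same range, and the log2FC was −0.05 (SE 0.07, adjusted p = 0.757 in the edgeR test). Of the 13310 genes with a mean FPKM of at least 1, the one whose log2 FPKM ran most closely with Trf over the 16 libraries was Ermn (Pearson r 0.848), an oligodendrocyte marker on the list used for that cell type. On the annotation, a further protein-coding model, Gm20425, overlaps Trf on the same strand.

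Tfrc encodes the transferrin receptor, through which transferrin-bound iron enters the cell. Its FPKM was 26.0 at the lowest, 28.7 at the median and 33.9 at the highest in EAE mice, and 24.0, 27.4 and 31.3 in the PBS group. Only EAE 3 stood above every PBS library. The difference was small against its error (log2FC 0.03, 95% interval −0.10 to 0.15, adjusted p = 0.872 in the edgeR test), and its sign changed within the alike libraries (−0.03). Relative to the ferritin heavy chain, the ratio of Tfrc to Fth1 FPKM was 0.0238 ± 0.0037 in EAE mice and 0.0223 ± 0.0025 in the PBS group (SD, n = 8). The lowest ratio, 0.0172, was that of EAE 5, and the highest, 0.0286, that of EAE 3.

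The paralogs Slc11a1 and Slc11a2 both move divalent metals with protons. Slc11a2 (DMT1) takes iron out of endosomes after transferrin uptake. Its FPKM was 11.1 at the lowest, 12.3 at the median and 14.02 at the highest in EAE mice, and 10.8, 11.8 and 12.99 in the PBS group. The ranges overlapped widely, with a log2FC of 0.04 (SE 0.05, 95% interval −0.07 to 0.15, adjusted p = 0.788 in the edgeR test). A protein-coding model on the opposite strand, Gm5475, overlaps Slc11a2, and the strand setting of the counting is not given in the sources used here.

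Slc11a1 (Nramp1) pumps metal ions out of the phagosome and is known for host resistance to intracellular microbes. In EAE mice its FPKM was 2.80, 3.32, 3.07, 4.38, 2.44, 2.79, 2.63 and 2.76 in EAE 1 to EAE 8. In PBS-treated mice it was 1.70, 2.61, 1.67, 2.02, 2.51, 1.49, 1.94 and 2.29 in PBS 1 to PBS 8. All EAE libraries but EAE 5 lay above the highest PBS library, PBS 2, and 6 of 8 PBS libraries lay below the lowest EAE library. The means were 3.03 ± 0.610 and 2.03 ± 0.409 (SD, n = 8), and the log2FC of 0.52 corresponds to a 1.43-fold higher level (95% interval 1.18 to 1.74). The adjusted p was 0.0454 in edgeR's quasi-likelihood test, close to the threshold, and counts were 180–293 per EAE library and 107–222 per PBS library.

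The call on Slc11a1 was lost without any 1 library other than EAE 4, EAE 5 or PBS 2. In the 16 edgeR fits that each left out 1 library, the log2FC ranged from 0.43 to 0.59, and the adjusted p was under 0.05 in 3 of them, with a range from 0.0252 without EAE 5 to 0.0891 without EAE 2. Within the alike libraries the log2FC was 0.25 (SE 0.14, adjusted p = 0.204 in edgeR), with 2.63–2.79 in EAE and 1.94–2.51 FPKM in PBS libraries. Within the other 10 libraries it was 0.68 (SE 0.19, adjusted p = 0.181 in edgeR), with 2.44–4.38 and 1.49–2.61. No member was called in that set, where 0.0745% of all genes were. The direction was the same in both sets, and whether the sets differ was not tested.

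Neutrophils and macrophages are known to express Slc11a1, and their markers are given beside it. The summed FPKM of 8 neutrophil markers was 23.3–64.4 in EAE libraries and 9.45–24.2 in PBS libraries, with 4 of the 8 called higher. EAE 4, which had the highest Slc11a1 level (4.38), had the lowest neutrophil sum among EAE libraries (23.3) and the highest microglia sum (271). EAE 7 had the highest neutrophil sum (64.4) with an Slc11a1 level of 2.63. EAE 5, with the lowest Slc11a1 level of the EAE libraries (2.44), had a microglia sum of 253, and PBS 4 had a microglia sum of 255 with an Slc11a1 level of 2.02. The 8 markers of monocytes and border macrophages summed to 5.45–9.01 and 3.72–7.22 FPKM, with EAE 4 the highest, and none of them was called or had an unadjusted p under 0.05. What part of the Slc11a1 difference came from any of these cells was not tested. The gene most alike to Slc11a1 over the 16 libraries was Itgam (r 0.924), which encodes CD11b, the surface protein used for the sort, and Lbp (r 0.890) and Ptgs1 (r 0.887) came next.

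**Figure D2:**
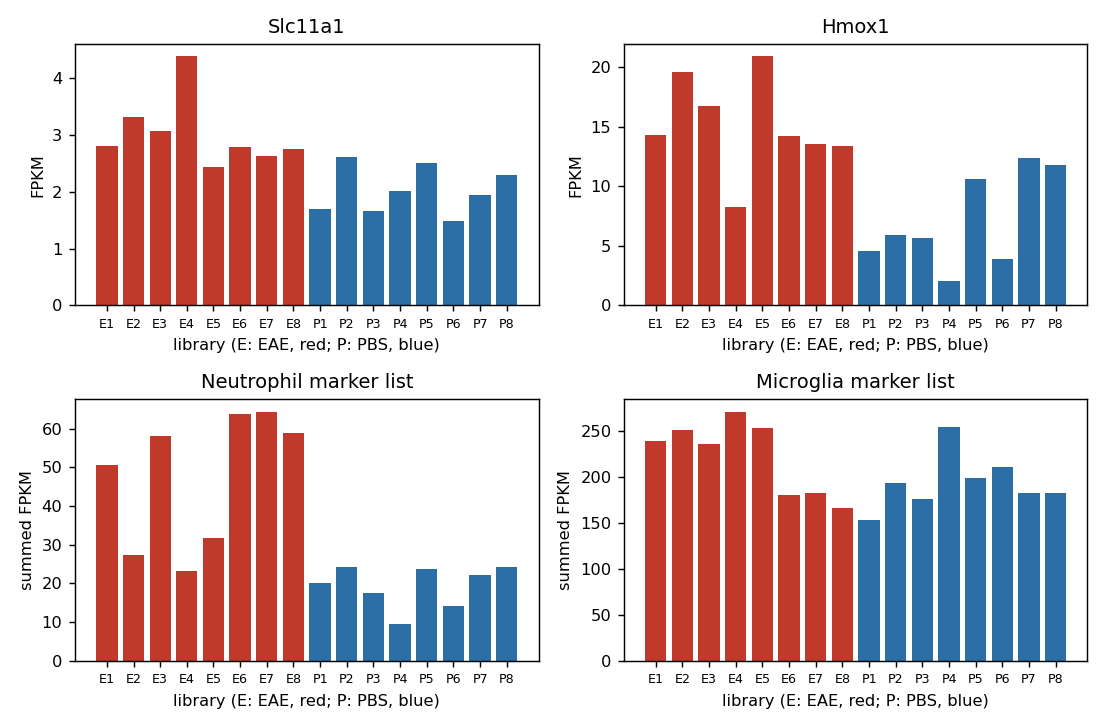
FPKM of Slc11a1 and Hmox1 and summed FPKM of the 8 neutrophil and 10 microglia markers, as 1 bar for each library (E1 to E8 for EAE in red, P1 to P8 for PBS in blue). EAE 4 had the highest Slc11a1 level, 4.38, and the lowest neutrophil sum of the EAE libraries, 23.3, and in the Hmox1 panel PBS 5, 7 and 8 stand above the other PBS libraries.

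The ratio of Slc11a1 to Slc11a2 put the difference between the paralogs within each library. It was 0.243 ± 0.0642 in EAE mice and 0.172 ± 0.0369 in the PBS group (SD, n = 8), and 8 of 8 EAE libraries lay above the PBS median. The ranges still overlapped, with 3 EAE libraries above the highest PBS library. EAE 4 was the highest, at 0.396.

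Slc40a1 encodes ferroportin, the known exporter of cellular iron. Its FPKM was 0.904 at the lowest, 1.27 at the median and 2.20 at the highest in EAE mice, and 0.770, 1.07 and 1.49 in the PBS group. Only EAE 5 and EAE 1 (1.69) stood above all PBS libraries. It was the least abundant member, with 83–232 counts per EAE library and 70–149 per PBS library, and the interval of its log2FC was the widest (0.23, −0.13 to 0.60, adjusted p = 0.5258 in the edgeR test), so that no change and a rise by the upper bound cannot be told apart at this depth and spread. The log2FC was 0.10 without EAE 5 (adjusted p = 0.771 in edgeR), 0.35 in the other libraries and −0.03 in the alike ones. Its most alike gene was the microglia marker Siglech (r 0.913).

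Cp encodes ceruloplasmin, a copper ferroxidase that works with ferroportin. Its FPKM was 2.74 at the lowest, 5.10 at the median and 5.95 at the highest in EAE mice, and 2.96, 5.03 and 6.06 in the PBS group. The groups had nearly the same range and nearly the same mean, 4.80 ± 1.12 and 4.79 ± 1.10 (SD, n = 8), with a log2FC of −0.05 (SE 0.15, adjusted p = 0.901 in the edgeR test). EAE 3 and EAE 5 (3.52) and PBS 4 (3.41) and PBS 6 were low in both groups. Within the alike libraries the FPKM was 4.73–5.22 in EAE and 5.45–6.06 in PBS libraries. Cp was called lower in EAE mice there (log2FC −0.24, SE 0.06, adjusted p = 0.0058 in edgeR), with the same limit on SE and p-value as for Ftl1. In the other libraries the log2FC had the opposite sign, 0.08 (SE 0.20), and the difference between the sets was not tested. Hps3 overlaps Cp on the opposite strand of the annotation.

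**Figure D3:**
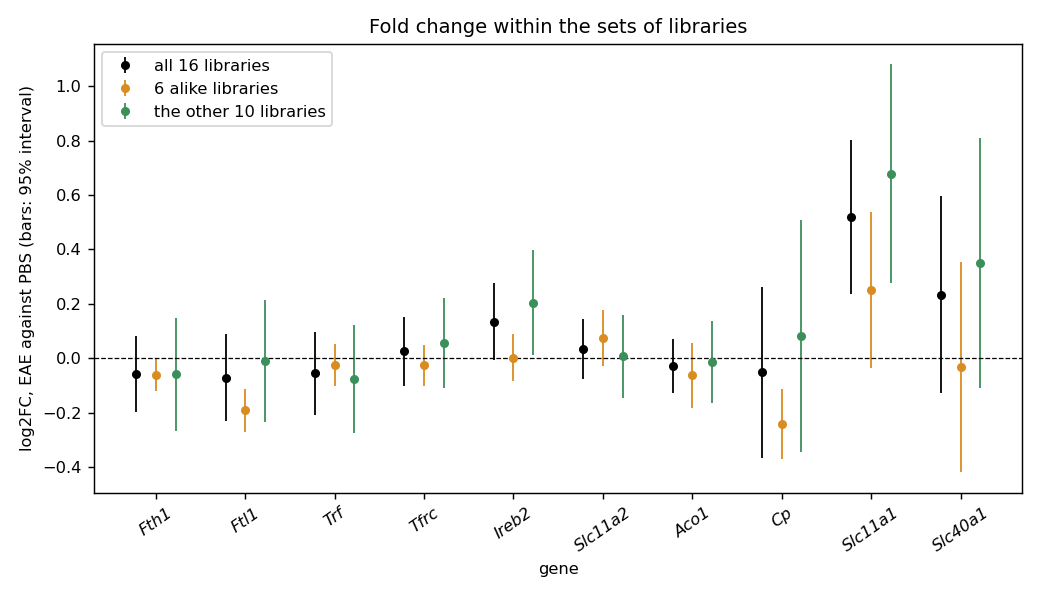
Log2FC of EAE against PBS with its 95% interval (edgeR) for each member in all 16 libraries (black), in the 6 alike libraries (orange) and in the other 10 (green). Slc11a1 lies above 0 in all 3, from 0.25 to 0.68, while Fth1 (−0.06), Ftl1 (−0.19) and Cp (−0.24) have their whole interval below 0 in the alike libraries, of which Ftl1 and Cp were called. The alike libraries were singled out by their small spread within a group, so their intervals are too narrow.

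The iron regulatory proteins IRP1 and IRP2, which read the hairpins shown above, are encoded by Aco1 and Ireb2. IRP1 is also the cytosolic aconitase when it holds an iron-sulphur cluster, and IRP2 is degraded when iron is plentiful. The Aco1 FPKM was 10.6 at the lowest, 10.8 at the median and 11.6 at the highest in EAE mice, and 9.86, 10.8 and 12.02 in the PBS group. Aco1 was the steadiest member, with a coefficient of variation of 5.48% over the 16 libraries. Its log2FC was −0.03 (SE 0.05, adjusted p = 0.808) in edgeR, also with other size factors and in DESeq2, and 0.02 (adjusted p = 0.826) in limma on log2(FPKM + 0.1), which differs in both model and scale.

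The Ireb2 FPKM was 13.2 at the lowest, 14.2 at the median and 19.0 at the highest in EAE mice, and 11.7, 12.9 and 14.8 in the PBS group. All 8 EAE libraries lay above the PBS median, and 3 of them lay above the highest PBS library. The log2FC was 0.13 (SE 0.07, 95% interval −0.01 to 0.28, unadjusted p = 0.0591 and adjusted p = 0.308 in the edgeR test), and it was 0.08 without EAE 5, the highest library. It was 0.00 (SE 0.04) within the alike libraries and 0.20 (SE 0.09) within the others. The ratio of Aco1 to Ireb2 was 0.750 ± 0.0793 in EAE mice and 0.836 ± 0.0917 in the PBS group (SD, n = 8), and 1 of 8 EAE libraries lay above the PBS median.

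**Figure D4:**
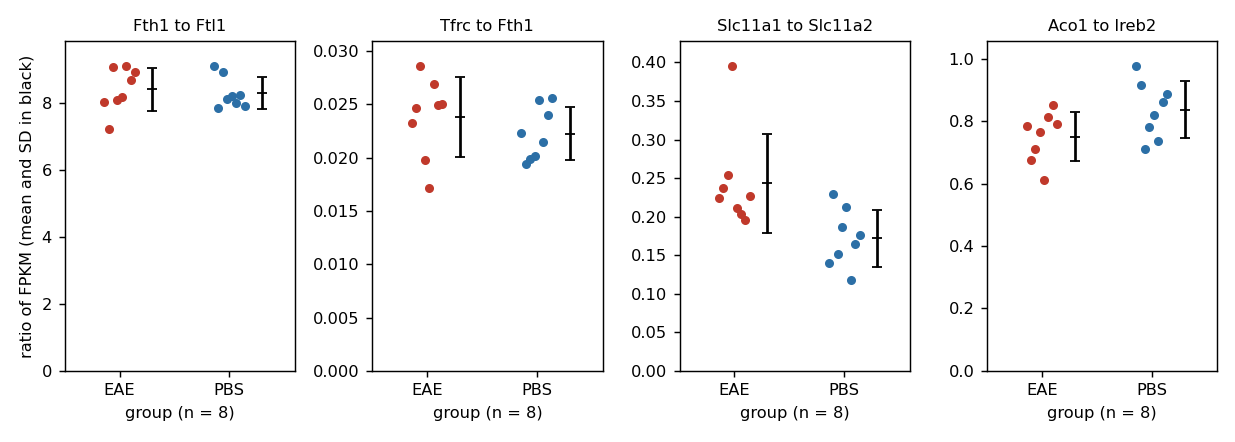
Ratio of FPKM between pairs of members in each library, with EAE in red and PBS in blue (n = 8 per group) and the mean ± SD in black. The groups overlap in every panel, and EAE 4 stands apart in the ratio of Slc11a1 to Slc11a2, at 0.396.

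Ordered by mean FPKM, the members ran Fth1, Ftl1, Trf, Tfrc, Ireb2, Slc11a2, Aco1, Cp, Slc11a1 and Slc40a1. The heavy chain of ferritin was 8.35 ± 0.548 times the light chain (SD over 16 libraries), and Ftl1 was 1.52 ± 0.146 times Trf. Ranges of neighbours did not overlap from Fth1 down to Ireb2 or between Aco1 and Cp. Ireb2 and Slc11a2 were close, with Ireb2 the higher in 13 of 16 libraries, as were Slc11a2 and Aco1, with Slc11a2 the higher in 15 of 16. Cp exceeded Slc11a1 in 15 of 16 libraries and Slc11a1 exceeded Slc40a1 in 16 of 16, although their ranges over all libraries overlapped.

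EAE 5 had the highest value of the EAE libraries for Fth1, Ftl1, Trf, Slc40a1, Aco1 and Ireb2, and EAE 4 for Slc11a1 and Cp. Over the 16 libraries the genes most alike to the ferritin chains were Rpl31 (r 0.961) and Rps15 (r 0.957), both of the ribosome, and Qdpr (r 0.956) for Fth1, and Prdx6 (r 0.954), the ribosomal Rpl23a (r 0.953) and S100a16 (r 0.917) for Ftl1. For Tfrc they were Map7d1 (r 0.911), Cdk2 (r 0.906) and Aim1 (r 0.900), and for Ireb2 Pigm (r 0.976), Zfp451 (r 0.936) and Whsc1 (r 0.914). Beside Ermn, Trf was closest to Gpt (r 0.848) and Emg1 (r 0.844), and beside Siglech, Slc40a1 was closest to Alpl (r 0.871) and the lysosomal Laptm5 (r 0.867). The remaining members had Myh7b (r 0.938), Slc16a11 (r 0.926) and Mms19 (r 0.911) for Slc11a2, Mogs (r 0.842), Fcgr2b (r 0.833) and Sap30bp (r 0.832) for Cp, and Stard8 (r 0.876), 2200002D01Rik (r 0.857) and Selo (r 0.857) for Aco1. These correlations describe 16 libraries that share their depth and cell mixture, and no test was attached to them.

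A wider list of 45 genes of iron and haem handling puts the members in context. Of these, 44 were in the tables and 42 could be tested: 2 were called higher, Ltf and Hmox1, and 1 lower, App, against 2.42% of all genes called in either direction. Their median log2FC was −0.0231, with 20 of 42 above 0. In the 4 groups of the list, 1 of 11 tested genes of uptake and reduction was called (median log2FC 0.11), 1 of 6 of storage, export and chaperones (−0.16), 0 of 8 of sensing and the hepcidin axis (0.05) and 1 of 17 of mitochondrial iron, iron-sulphur and haem (−0.03). An unadjusted p under 0.05 was found for 15 of the 42 genes, against 17.4% of all genes: 5 of 11, 2 of 6, 2 of 8 and 6 of 17 in these groups, in the same order. DESeq2 called no sensing or hepcidin gene. The hepcidin gene Hamp and the mitochondrial ferritin gene Ftmt, with 10 and 2 counts in all 16 libraries together, were below the minimum for a test.

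Hmox1, the inducible haem oxygenase, releases iron from haem. Its FPKM was 8.26 at the lowest and 20.9 at the highest in EAE mice (15.1 ± 3.98, SD, n = 8) and 2.05 and 12.4 in the PBS group (7.12 ± 3.94). The log2FC was 1.03 (SE 0.27, adjusted p = 0.0436 in the edgeR test), and the call held in 6 of the 16 fits that left out 1 library, those without EAE 4 or 5 or PBS 4, 5, 7 or 8 (log2FC 0.89 to 1.19 over the 16 fits). The PBS libraries fell into separate levels, with 10.7–12.4 in PBS 5, 7 and 8 and 2.05–5.94 in the others. The log2FC was 0.21 (SE 0.08) within the alike libraries, with an adjusted p of 0.0623, and 1.78 (SE 0.26) within the others, with an adjusted p of 0.0221 in edgeR. The difference between the sets was not tested.

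Ltf encodes lactoferrin, an iron-binding protein of neutrophil granules that also stands on the neutrophil marker list. Its FPKM was 0.601–1.83 in EAE and 0–0.469 in PBS libraries, without overlap, and the log2FC was 1.87 (SE 0.35, adjusted p = 0.00898 in the edgeR test). App encodes the amyloid precursor protein, a membrane protein that is linked to ferroportin at the cell surface. Its FPKM was 161–211 in EAE and 223–252 in PBS libraries, again without overlap, with a log2FC of −0.31 (SE 0.05, adjusted p = 0.00573 in the edgeR test). Both calls held in 16 of 16 fits with 1 library left out and within the alike libraries. Within the other 10 libraries neither was called, with a log2FC of 2.00 (SE 0.52, adjusted p = 0.145 in edgeR) for Ltf and −0.35 (SE 0.07, adjusted p = 0.0873 in edgeR) for App. Beside App, 2 of 8 neuron markers were called lower in EAE mice. The median log2FC was −0.14 over the neuron, −0.13 over the oligodendrocyte and −0.20 over the astrocyte markers. The part of these cell types in the App difference was not tested.

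The next genes by p-value did not pass the test. Pcbp1, a cytosolic iron chaperone, had a log2FC of −0.19 (SE 0.05, adjusted p = 0.0568 in edgeR), with FPKM 43.5 ± 3.22 and 48.0 ± 2.96 (SD, n = 8). Lrp1, a receptor of haem bound to hemopexin among other ligands, had −0.13 (SE 0.04, adjusted p = 0.0583 in edgeR). Tfr2, the second transferrin receptor, had 0.41 (SE 0.14, adjusted p = 0.128 in edgeR), with 3.85 ± 0.907 and 2.80 ± 0.490 FPKM. DESeq2 also called Pcbp1 and Lrp1 lower.

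**Figure D5:**
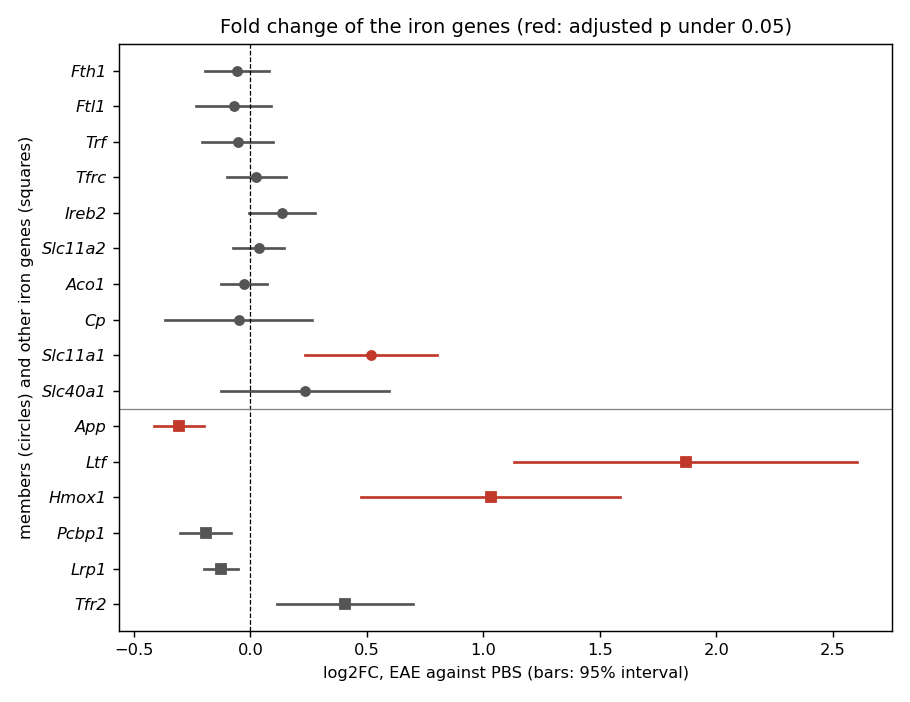
Log2FC of EAE against PBS with its 95% interval (edgeR, 16 libraries) for the 10 members (circles) and for the 6 other iron genes with the smallest p-values (squares), in red where the adjusted p was under 0.05. Of the members, only Slc11a1 (0.52) is red, and of the other genes App (−0.31), Ltf (1.87) and Hmox1 (1.03).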

How the data were processed

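The authors aligned reads to GRCm38 with HISAT2 (2.1.0, per the submitters' processing notes), counted them with HTSeq (0.11.2), and deposited 1 table of raw counts and 1 of FPKM for 21878 mRNAs in 16 libraries. The deposited FPKM equalled the counts over the total count and 1 gene length (relative spread 1.15e-09 over 7749 genes). Here the counts were tested in R 4.3.3 with edgeR 4.0.16 (TMM, quasi-likelihood test, Benjamini-Hochberg) for genes with at least 16 counts in all, EAE against PBS without covariates, and checked on simulated data. Alternatives were other size factors, DESeq2 1.42.0, limma 3.58.1 on log2(FPKM + 0.1) or log2(FPKM + 1), other filters, a replicate block, the sets of alike libraries and leaving out each library. Levels between genes were compared only in FPKM. No separate cultures or pools are named, and each library was 1 mouse.

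The 10 genes, the wider lists, the markers and the sets of libraries were chosen with earlier results of these data known. All 10 genes were named, with those other iron genes that were called or had the 6 smallest p-values, and the 3 genes most alike to each member by Pearson r of log2(FPKM + 0.1). Flvcr1 and Flvcr2 were found under the older symbols Mfsd7b and Mfsd7c, and Ftl2, Trac and Trbc2 were not analysed here. Hairpins were searched in the protein-coding transcripts of the GENCODE M21 basic set. The replicate numbers were not taken as pairs: 3 of 8 same-numbered pairs had a correlation of deviations over 0.1 (range −0.235 to 0.581). Endothelial, pericyte, T-cell, choroid plexus and hepatocyte marker lists were also read.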

Additional observations from a re-analysis of the deposited data

Results flagged for a closer look

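In 28 groups of 8 values, the highest and lowest library were compared with the next one by Dixon's ratio, which flags about 1 in 20 groups by chance, and 3 groups passed its limit for 8 values. The Fth1 level of EAE 5 was 1595 FPKM, while the other EAE libraries lay at 1123–1316 (ratio 0.591). Without EAE 5 the log2FC of Fth1 was −0.12 instead of −0.06 and it was not called (adjusted p = 0.207 in edgeR). The Slc11a1 level of EAE 4 was 4.38 FPKM, against 2.44–3.32 in the other EAE libraries (ratio 0.548), and without EAE 4 the gene was still called (log2FC 0.43, adjusted p = 0.041 in edgeR). The ratio of Slc11a1 to Slc11a2 in EAE 4 was 0.396, against 0.196–0.254 in the others (ratio 0.709). It shares its numerator with the preceding value.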

How the results depend on the processing

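Slc11a1 was called higher under every alternative fit tried on all 16 libraries except that without a filter on low counts, with adjusted p from 0.00952 (DESeq2) to 0.0513 (no filter). No member was called higher in that fit, within the alike or within the other libraries, or with a |log2FC| over 1, where the count was 0. Members called lower were 2 within the alike libraries and 0 otherwise. Other iron genes called higher were 5 within the alike and 1 within the other libraries. Those called lower were 3 with DESeq2 or a term for the alike libraries, 2 with the replicate block, 9 within the alike libraries, and 0 within the others or with the fold threshold. All genes called higher and lower were 299 and 611 with DESeq2, 242 and 526 with the term, 1896 and 2251 within the alike, 8 and 5 within the other libraries, and 17 and 4 with the fold threshold. With limma, 132 were higher and 73 lower (pseudocount 0.1), and 157 and 80 (pseudocount 1), so that higher calls outnumbered lower ones, the opposite of edgeR. Leaving out 1 library gave 0–1 members higher and 0 lower, 1–3 other iron genes higher and 1–5 lower, and 39–502 of all genes higher and 104–815 lower. The extremes came without EAE 2 (39), PBS 2 (104) and EAE 4 (502 and 815). The replicate block, which pairs libraries by number only, called 150 higher and 367 lower against 118 and 315, and Slc11a1 stayed called (adjusted p = 0.0443); 2 EAE libraries correlated best with their own number. The sign of the log2FC changed for 4 members, none of them called in all 16 libraries. For Tfrc it was −0.0263 within the alike libraries and −0.0053 (without EAE 3) to 0.0506 (without EAE 4) with 1 library left out, and also below 0 without PBS 4. For Slc40a1 it was −0.0331 within the alike libraries, against 0.23 in all 16. For Cp it was 0.0829 within the other libraries and −0.134 (without PBS 6) to 0.0353 (without EAE 3) with 1 library left out, and also above 0 without EAE 5. For Aco1 it was 0.0227 and 0.0208 with limma at the pseudocounts of 0.1 and 1. The causes were not tested. Counts of 70–232 per library for Slc40a1 and 107–293 for Slc11a1, together with the spread between mice, limit what could be detected for these genes.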
